A study of Mus musculus with 6 samples.

Results

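Integrins are surface receptors made of an α chain and a β chain, and 10 integrin genes that macrophages are known to use were followed here by their symbols, out of the 47729 genes counted. They were read as α-β pairs in immortalized bone marrow-derived macrophages (BMMs) from 3 WT and 3 *Aif1*-/- libraries. The α chains were *Itgal*, *Itgam*, *Itgax*, *Itga4*, *Itga5* and *Itgav*, and the β chains were *Itgb1*, *Itgb2*, *Itgb3* and *Itgb7*. All 10 were found in the count files and all passed the filter on low counts.

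The study asked how loss of AIF1, a calcium- and actin-binding protein of macrophages, alters the cells, and RNA-seq of BMMs was one of its assays. Both groups were BMMs of 8-week-old male mice on a C57BL/6J background, to which the *Aif1*-/- line had been backcrossed. The BMMs were immortalized with the SV40 large T antigen, kept in medium with 120 ng/ml CSF-1 and used at passages 3 to 5. The *Aif1*-/- group lacked *Aif1* in every cell of the donor mouse and the WT group carried both alleles. The libraries are given as coming from independent animals but it is not stated whether each came from a line immortalized on its own, and a p-value then measures only the spread between libraries.

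The β2 integrins, which share the chain encoded by *Itgb2* (CD18), are restricted to leukocytes. *Itgal* (CD11a) forms LFA-1, which binds ICAMs, *Itgam* (CD11b) forms Mac-1 or complement receptor 3, and *Itgax* (CD11c) forms complement receptor 4. *Itga4* with *Itgb1* binds VCAM-1 and fibronectin, and with *Itgb7* it binds MAdCAM-1. *Itga5* with *Itgb1* is the classical fibronectin receptor, while *Itgav* pairs with *Itgb1*, *Itgb3* and other β chains to bind vitronectin, osteopontin and further RGD proteins. The β chain must be shared among its α partners, and neither chain reaches the surface well without the other. The counts give RNA and not surface protein.

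Gene totals were 17707986 to 29314253 counts per library. Between 25.5% and 40.4% of a library's reads fell in no gene and 4.55% to 7.15% were ambiguous, and the WT libraries held both extremes in each case. *Aif1* had raw counts of 220, 157 and 239 in WT and 4, 4 and 1 in *Aif1*-/- BMMs. Of 8 macrophage markers, 6 were higher and 1 (*Cd14*) was lower in *Aif1*-/- BMMs, beside 8.04% and 10.5% of all genes tested. *Csf1r*, the most abundant, went from 36166 ± 3317 to 50595 ± 573 normalized counts. *Cd68* (22477 ± 1801 and 22559 ± 668, SD, n = 3 each) was not called. The summed normalized count of the 8 markers was 82417 to 100838 in WT and 120335 to 122365 in *Aif1*-/- libraries. The part of this difference in the integrin values was not tested, and in bulk RNA fewer cells of a type and less RNA per cell cannot be told apart. Normalized counts of 7 granulocyte markers summed to 0 to 25.1 in WT and 9.22 to 20.0 in *Aif1*-/- libraries, with 4 at 0 (*Ly6g*, *S100a9*, *Mpo*, *Elane*). Those of 5 mast cell markers summed to at most 1.33 in any library, with 4 at 0 (*Cpa3*, *Mcpt8*, *Fcer1a*, *Ms4a2*). Those of 5 fibroblast markers summed to 0 to 6.79 in WT and 0 to 25.0 in *Aif1*-/- libraries, with 2 at 0 (*Dcn*, *Lum*) and 17 *Col3a1* counts in *Aif1*-/- replicate 3. Of 7 dendritic cell markers, 2 were tested (*Zbtb46* and *Xcr1*) and neither passed the test, and *Ccr7* had no counts. The dendritic cell markers summed to 48.1 to 66.2 in WT and 63.9 to 104 in *Aif1*-/- libraries. *Xcr1* went from 15.9 ± 7.34 to 35.6 ± 9.31 (SD, n = 3 each) without overlap (adjusted p = 0.0782, edgeR).

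In *Aif1*-/- BMMs 5 of the 10 integrin genes were higher (*Itgal*, *Itgam*, *Itgax*, *Itgb2*, *Itgav*), 3 were lower (*Itgb3*, *Itgb7*, *Itga4*) and 2 were not called (*Itga5*, *Itgb1*). A call is an adjusted p under 0.05 from edgeR's quasi-likelihood test over all 17406 genes tested, of which 8.04% were higher, 10.5% were lower and 18.6% were called either way. The values ranged from a log2 fold change (*Aif1*-/- minus WT) of 5.05 for *Itgal* to −2.86 for *Itgb3*. The median over the 10 genes was 0.18, beside −0.004 over all genes tested. For 8 of the 10 the WT and *Aif1*-/- libraries did not overlap, as did not those of 35.7% of all tested genes.

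**Figure D1:**
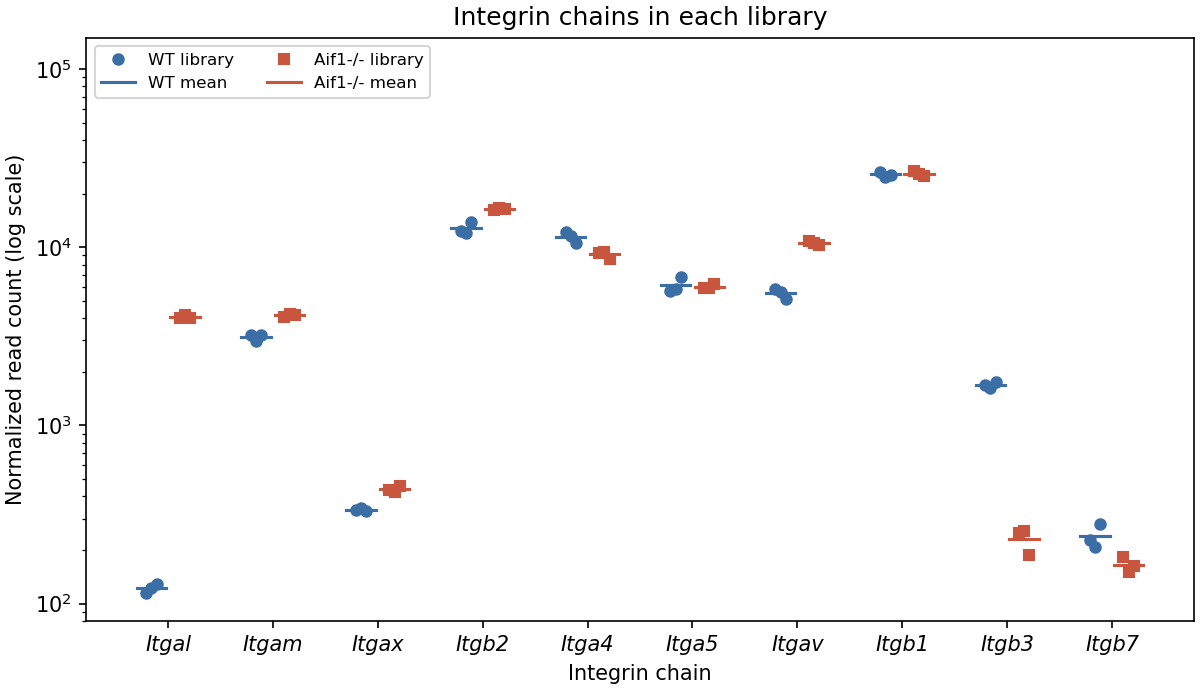
Normalized read counts (log scale, on the scale of the mean library) of the 10 integrin genes in each WT (circles) and *Aif1*-/- (squares) library, with a line at each group mean. *Itgal* sat at 115 to 129 in WT and at 3990 to 4163 in *Aif1*-/- libraries, and *Itgb3* went from 1614 to 1750 down to 187 to 254, while *Itga5* and *Itgb1* overlapped.

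*Itgal* (ENSMUSG00000030830) lies on the plus strand of chromosome 7 of GRCm38, from 127296260 to 127335138. The 3 WT libraries held 114, 145 and 153 raw counts of it and the *Aif1*-/- libraries 4517, 3126 and 3041, each in the order of replicates 1, 2 and 3. Normalized counts were 115, 123 and 129 in WT and 3990, 4163 and 4004 in *Aif1*-/- BMMs. Each *Aif1*-/- library was thus far above all WT libraries, and the spread within either genotype was small beside the gap. The mean rose from 122 ± 7.31 (SD, n = 3) to 4052 ± 96.3 (SD, n = 3), 33.0-fold, with a log2 fold change of 5.05 (SE 0.083, adjusted p = 7.02e-10, edgeR). Leaving out any library gave 5.00 to 5.09.

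*Itgal* is also an abundant gene of lymphocytes, so that T cell and NK cell markers stand beside it. Of 7 T cell markers 6 stayed under 10 counts in each library, with *Cd3e* and *Cd3g* at 0, and their summed normalized count was 52.3 to 63.6 in WT and 54.0 to 61.8 in *Aif1*-/- libraries. The 5 NK cell markers summed to 5.03 to 10.1 and 5.27 to 14.6, with *Ncr1*, *Klrk1* and *Gzma* at 0.

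*Itgam* and *Itgax* are adjacent on chromosome 7, where *Itgam* (ENSMUSG00000030786) spans 128062640 to 128118491 and *Itgax* (ENSMUSG00000030789) spans 128129547 to 128150657, both on the plus strand. *Itgam* had normalized counts of 3204, 2995 and 3230 in WT and 4084, 4228 and 4185 in *Aif1*-/- BMMs. *Itgax* had 334, 345 and 333 in WT and 432, 425 and 458 in *Aif1*-/- BMMs. For both genes every *Aif1*-/- library was above every WT library. *Itgam* rose 1.33-fold, from 3143 ± 129 to 4166 ± 74.1 (SD, n = 3 each), with a log2 fold change of 0.41 (SE 0.063, adjusted p = 0.00119). *Itgax* rose 1.30-fold, from 337 ± 6.99 to 438 ± 17.6 (SD, n = 3 each), with a log2 fold change of 0.38 (SE 0.097, adjusted p = 0.0214). The *Itgax* call was lost without WT replicate 1 (adjusted p = 0.0597) and without *Aif1*-/- replicate 1 (0.0922), 2 (0.0742) or 3 (0.119).

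*Itgb2* (ENSMUSG00000000290, chromosome 10, 77530252 to 77565708, plus strand), the shared partner of these α chains, moved with them. Normalized counts were 12357, 12084 and 13939 in WT and 16102, 16572 and 16354 in *Aif1*-/- BMMs, with no overlap. The mean rose 1.28-fold, from 12793 ± 1002 to 16342 ± 235 (SD, n = 3 each), and the log2 fold change was 0.35 (SE 0.071, adjusted p = 0.00562). Among the β2 genes the fold of *Itgal* thus stood apart from those of *Itgam*, *Itgax* and *Itgb2*, which lay between 1.28 and 1.33.

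Levels of different integrin genes were compared per kb of exon, taking the union of all annotated exons. In WT BMMs, *Itgb2* had 4192 normalized counts per kb, against 626 for *Itgam*, 70.2 for *Itgax* and 18.6 for *Itgal*. In *Aif1*-/- BMMs, *Itgb2* had 5355, *Itgam* 829, *Itgal* 617 and *Itgax* 91.3. The levels of the 4 genes did not overlap between neighbours in either order, and *Itgal* moved from below *Itgax* to above it. The level of *Itgam* carries a limit of counting. In the annotation used here 3450 of its 5024 exon bases (68.7%) are also exons of *Gm49368*, a gene on the same strand that was counted apart (raw counts 0, 0 and 0 in WT and 2, 0 and 4 in *Aif1*-/- BMMs), and a read in bases of more than 1 gene was set aside as ambiguous. The authors counted with an earlier Ensembl release whose exons of *Gm49368* were not used here, so values over unshared bases hold only if the overlap was the same in it. Over the 1574 *Itgam* bases that no other gene shares, the level was 1997 per kb in WT and 2647 per kb in *Aif1*-/- BMMs, which leaves its fold between genotypes as it was but places it higher against the other chains.

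Of the summed counts per kb of the 4 α chains known to pair with *Itgb2* (*Itgal*, *Itgam*, *Itgax* and *Itgad*), *Itgal* took 2.40%, 2.71% and 2.68% in the WT libraries and 40.1%, 40.4% and 39.5% in the *Aif1*-/- libraries. The share of *Itgam* went from 87.2% ± 0.80 to 53.8% ± 0.22, and that of *Itgax* from 9.80% ± 0.53 to 5.92% ± 0.28 (SD, n = 3 each). For these 3 chains the genotypes did not overlap (exact two-sided permutation p = 0.1, the smallest that 3 libraries against 3 can give). The shares of *Itgam* and *Itgax* fell although the counts of both genes rose. *Itgad* (CD11d) held 0.40% ± 0.19 and 0.28% ± 0.042, which overlapped (exact p = 0.4). With only the unshared exon bases, a length chosen after seeing the data, the share of *Itgal* went from 0.89% ± 0.062 to 18.4% ± 0.24 and that of *Itgam* from 95.6% ± 0.31 to 78.8% ± 0.15. The direction of both was the same with either length, but the size of the change in the *Itgal* share was 37.4 percentage points with all exon bases and 17.5 with the unshared ones.

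**Figure D2:**
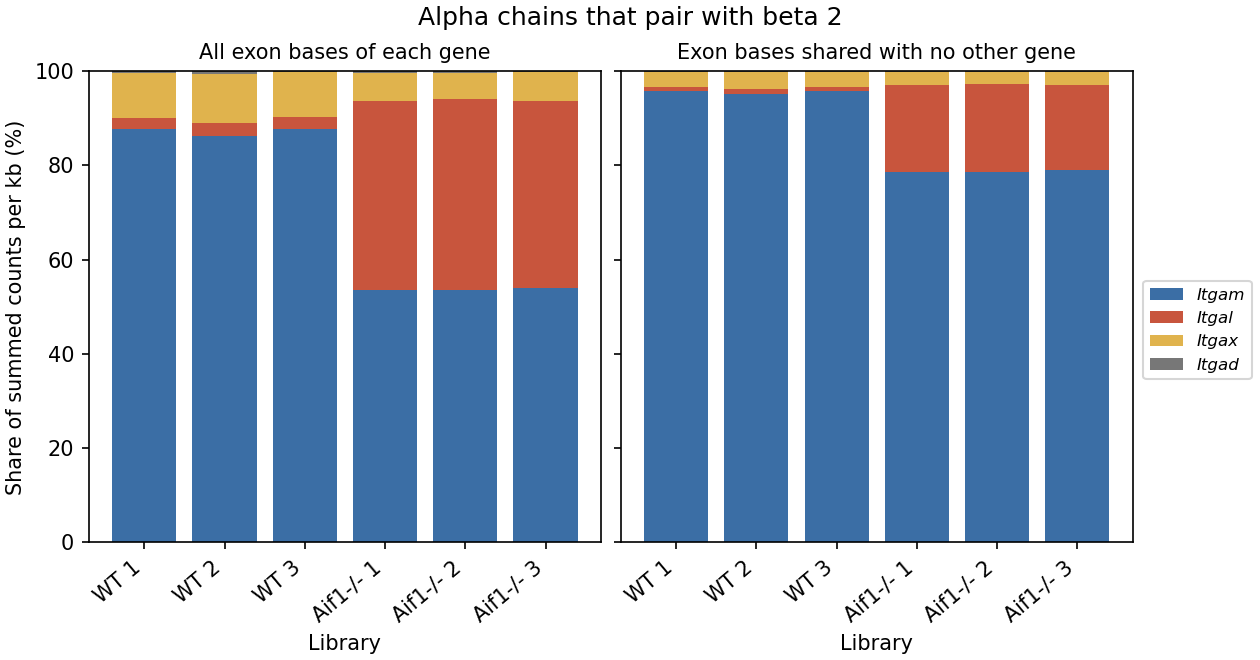
Share (%) of each α chain in the summed normalized counts per kb of the 4 α chains that pair with β2, in each library, over all exon bases (left) and over exon bases that no other gene shares (right). *Itgal* took 39.5% to 40.4% of the *Aif1*-/- bars on the left and 18.1% to 18.6% on the right, against under 3% of each WT bar.

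*Itga4* (ENSMUSG00000027009, chromosome 2, 79255426 to 79333123, plus strand) was lower in *Aif1*-/- BMMs. Normalized counts were 12133, 11560 and 10570 in WT and 9314, 9413 and 8639 in *Aif1*-/- BMMs, with no overlap. The mean fell from 11421 ± 791 to 9122 ± 421 (SD, n = 3 each), and the log2 fold change was −0.32 (SE 0.072, adjusted p = 0.0102). This call was lost without WT replicate 1 (adjusted p = 0.0510), *Aif1*-/- replicate 1 (0.0540) or *Aif1*-/- replicate 3 (0.0820), and of the 10 genes only *Itgb3* was then called lower. Of its exon bases 8.04% lie over *Cerkl* on the opposite strand.

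*Itgav* (ENSMUSG00000027087, chromosome 2, 83724397 to 83806916, plus strand) was higher. Normalized counts were 5860, 5607 and 5141 in WT and 10815, 10608 and 10277 in *Aif1*-/- BMMs. The lowest *Aif1*-/- library was well above the highest WT library. The mean rose 1.91-fold, from 5536 ± 364 to 10567 ± 271 (SD, n = 3 each), and the log2 fold change was 0.93 (SE 0.069, adjusted p = 6.24e-06). Of its exon bases 5.90% lie over *Gm13684* on the opposite strand.

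*Itga5* (ENSMUSG00000000555, chromosome 15, 103344286 to 103366763, minus strand) had normalized counts of 5670, 5832 and 6820 in WT and 5878, 5883 and 6198 in *Aif1*-/- BMMs. *Itgb1* (ENSMUSG00000025809, chromosome 8, 128685654 to 128733200, plus strand) had 26596, 24762 and 25528 in WT and 26711, 25856 and 25073 in *Aif1*-/- BMMs. Both overlapped between genotypes. The log2 fold change was −0.03 for *Itga5* (95% interval −0.21 to 0.15, adjusted p = 0.866) and 0.01 for *Itgb1* (95% interval −0.13 to 0.15, adjusted p = 0.921). These intervals bound a difference, and do not show that the levels were equal.

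*Itgb3* (ENSMUSG00000020689, chromosome 11, 104608000 to 104670476, plus strand), the β chain of the vitronectin receptor of osteoclasts and macrophages, showed the largest fall of the 10. Raw counts were 1678, 1902 and 2073 in WT and 283, 191 and 142 in *Aif1*-/- BMMs, and normalized counts were 1687, 1614 and 1750 in WT and 250, 254 and 187 in *Aif1*-/- BMMs. Every *Aif1*-/- library was below every WT library. The mean fell from 1684 ± 68.4 to 230 ± 37.7 (SD, n = 3 each), which was 7.28-fold lower, with a log2 fold change of −2.86 (SE 0.115, adjusted p = 8.78e-08). Without any 1 library it was −2.93 to −2.73. β3 also pairs with the α chain of *Itga2b* on platelets, and the *Itga2b* count, normalized, was 12.7 ± 6.64 for WT and 9.12 ± 1.30 for *Aif1*-/- BMMs (SD, n = 3 each). Of 5 platelet markers 4 were tested and 3 were higher (*Pf4*, *Ppbp*, *Treml1*). *Gp1ba* was not called, and *Gp9* had 2 counts in all. Their sum was 967 to 1074 in WT and 2031 to 2139 in *Aif1*-/- libraries, the opposite direction to *Itgb3*. Most of this sum was the single gene *Pf4* (892 ± 80.8 in WT and 1745 ± 48.0 in *Aif1*-/- BMMs). Of 4 endothelial markers 1 was lower (*Kdr*), with sums of 927 to 1062 and 689 to 745. Most of these sums was *Kdr* itself (967 ± 76.6 in WT and 687 ± 22.1 in *Aif1*-/- BMMs). The part of either list in the *Itgb3* value was not tested.

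*Itgb7* (ENSMUSG00000001281, chromosome 15, 102215995 to 102231944, minus strand) had normalized counts of 227, 209 and 280 in WT and 184, 150.5 and 162 in *Aif1*-/- BMMs. The genotypes did not overlap, but WT replicate 3 stood above the other libraries. The mean went from 239 ± 37.2 to 165 ± 16.9 (SD, n = 3 each), and the log2 fold change was −0.52 (SE 0.157, adjusted p = 0.0429). The call was lost without WT replicate 1 (adjusted p = 0.0840) or 3 (0.0594) and without *Aif1*-/- replicate 1 (0.0822), 2 (0.190) or 3 (0.156).

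**Figure D3:**
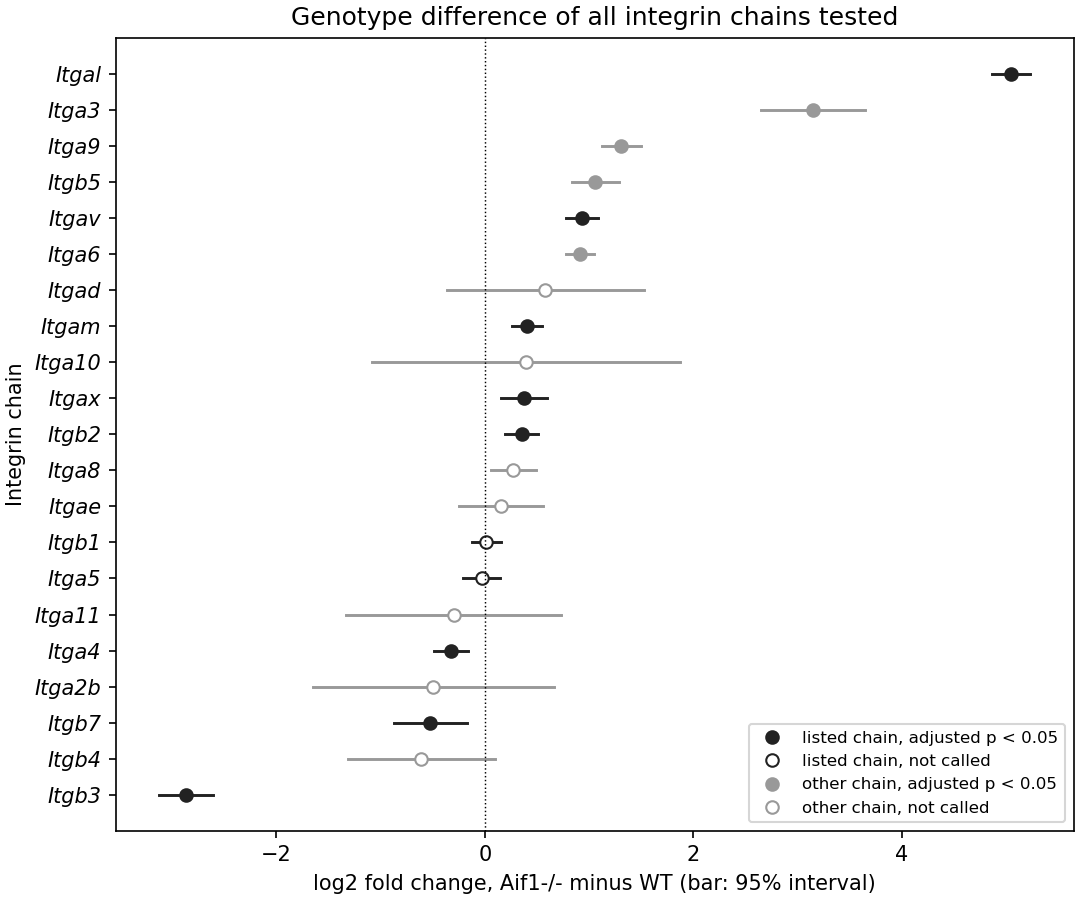
log2 fold change (*Aif1*-/- minus WT, edgeR) with its 95% interval for the 10 integrin genes followed here (black) and the 11 other integrin chains tested (grey), with filled points for adjusted p under 0.05. *Itgal* at 5.05 and *Itgb3* at −2.86 were the ends of the range, and the intervals of *Itga5* and *Itgb1* crossed 0.

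As pairs, the α to β ratio within a library does not depend on how the libraries were scaled. The log2 ratio of *Itgal* to *Itgb2* (counts per kb) was −7.86, −7.72 and −7.86 in WT and −3.12, −3.10 and −3.14 in *Aif1*-/- BMMs. It thus rose by 4.70 ± 0.080, from 225 *Itgb2* counts per kb for each of *Itgal* to 8.68. For this and the other pair differences, ± is the root of the summed squares of the SDs of both genotypes. It gives the spread between single libraries and is not an SE. The log2 ratio of *Itgav* to *Itgb3* was 0.93, 0.93 and 0.69 in WT and 4.57, 4.52 and 4.92 in *Aif1*-/- BMMs, a rise of 3.82 ± 0.26. On the linear scale, *Itgav* was 1.80 times *Itgb3* per kb in WT and 25.4 times in *Aif1*-/- BMMs. Both partners took part in that change, *Itgav* upward and *Itgb3* downward.

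The ratio of *Itgav* to *Itgb1* rose by 0.92 ± 0.089 and that of *Itga4* to *Itgb1* changed by −0.34 ± 0.10 on the log2 scale. In these 4 pairs the genotypes did not overlap (exact two-sided permutation p = 0.1 each, the smallest possible, and 0.2 adjusted over the 8 pairs compared). The other 4 pairs overlapped. Their log2 ratio differed by 0.05 ± 0.082 for *Itgam* to *Itgb2* (exact p = 0.4), 0.02 ± 0.15 for *Itgax* to *Itgb2* (exact p = 0.9), −0.04 ± 0.18 for *Itga5* to *Itgb1* (exact p = 0.7) and 0.20 ± 0.34 for *Itga4* to *Itgb7* (exact p = 0.6). Leaving out each library gave 0.0078 to 0.089, −0.052 to 0.078, −0.12 to 0.046 and 0.024 to 0.30 for these pairs in turn, and the sign turned without WT replicate 3 for *Itgax* to *Itgb2* and *Itga5* to *Itgb1*, and without *Aif1*-/- replicate 3 for the former. In the first pair both chains were called higher with folds of 1.33 and 1.28, and in the last both were called lower. With 3 libraries a genotype no pair could pass 0.05.

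**Figure D4:**
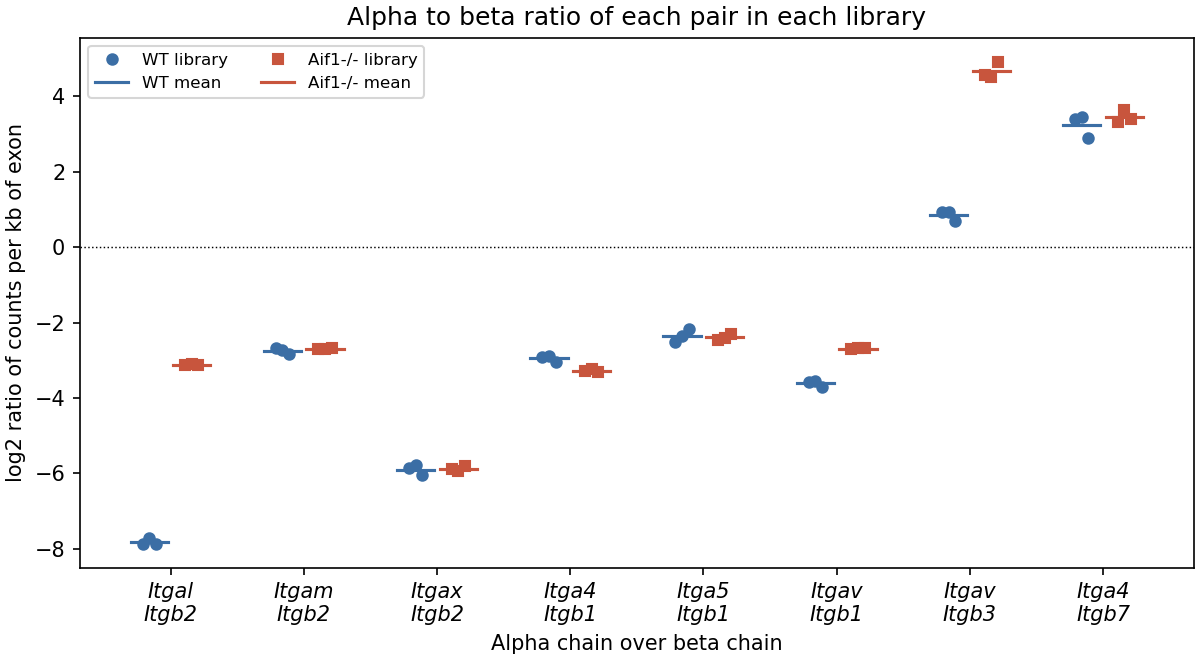
log2 ratio of α to β chain, in normalized counts per kb of exon, for 8 pairs in each WT (circles) and *Aif1*-/- (squares) library, with lines at the group means. The *Itgal* to *Itgb2* ratio went from −7.81 to −3.12 and the *Itgav* to *Itgb3* ratio from 0.85 to 4.67, while the *Itgam* and *Itgax* ratios to *Itgb2* overlapped.

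The α chains that pair with β2, summed per kb, were below *Itgb2* in every library. The log2 ratio of their sum to *Itgb2* was −2.54 ± 0.084 in WT and −1.80 ± 0.0046 in *Aif1*-/- BMMs (SD, n = 3 each), a rise of 0.75 without overlap (exact p = 0.1), or of 0.33 with the unshared exon length. Among *Itga4*, *Itga5* and *Itgav*, the share of *Itgav* went from 20.1% ± 1.57 to 34.5% ± 0.68, that of *Itga4* from 31.8% ± 2.60 to 22.9% ± 0.94 and that of *Itga5* from 48.1% ± 4.17 to 42.6% ± 1.55. The *Itga5* share differed by −5.54 percentage points, or by −3.19 without WT replicate 3. Among the 4 β chains, *Itgb1* took 57.9% ± 1.98 in WT and 53.8% ± 0.98 in *Aif1*-/- BMMs, and *Itgb2* took 38.6% ± 1.88 and 45.4% ± 1.05. *Itgb3* took 2.63% ± 0.015 and 0.33% ± 0.050, and *Itgb7* 0.79% ± 0.095 and 0.51% ± 0.049. All of these shares differed without overlap. Shares of a set add up to the whole, so a share can fall because others rise. The counts of *Itga5* and *Itgb1* themselves overlapped between genotypes (log2 fold changes −0.03 and 0.01, neither called). β1 and β2 were thus the main ones of these 4 β chains in either genotype by RNA. The β shares leave out *Itgb5*, at 864 per kb in WT and 1800 in *Aif1*-/- BMMs. The α shares leave out *Itga6*, at 686 and 1295.

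By level per kb, the order of the 10 in WT was *Itgb1* (6280), *Itgb2* (4192), *Itga5* (1238), *Itga4* (817), *Itgam* (626), *Itgav* (515), *Itgb3* (285), *Itgb7* (86.2), *Itgax* (70.2) and *Itgal* (18.6). Among the 10, the libraries of each gene lay above those of the gene after it. In *Aif1*-/- BMMs the order was *Itgb1* (6342), *Itgb2* (5355), *Itga5* (1213), *Itgav* (983), *Itgam* (829), *Itga4* (653), *Itgal* (617), *Itgax* (91.3), *Itgb7* (59.7) and *Itgb3* (39.0). There *Itga4* and *Itgal* overlapped and could not be ordered with all exon bases. Over unshared bases *Itga4* lay at 672 to 732 per kb, above *Itgal* at 607 to 634, and *Itgam* stood above *Itga5* in both genotypes. The *Itga4* bases left out lie over *Cerkl* on the opposite strand. Its order against *Itgal* holds only if those bases lost reads, which was not tested.

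To show what lies before the start of these genes, the RefSeq promoter entries (GRCm38.p6) were searched. Entries were found for 7 of the 10 genes. *Itgal*, *Itgb2* and *Itgb3* had none. The 150 bases before the start of the side-by-side pair *Itgam* and *Itgax*, which both rose, and of *Itgav* and *Itga4*, both on chromosome 2, which moved in opposite directions, are printed 5′ to 3′ along the gene, with matches to 3 short motifs on either strand in capitals.
*Itgam* (chr7:128062490-128062639, plus strand): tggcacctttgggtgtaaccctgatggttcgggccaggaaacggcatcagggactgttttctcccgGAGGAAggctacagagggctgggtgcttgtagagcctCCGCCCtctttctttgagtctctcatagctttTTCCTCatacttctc
*Itgax* (chr7:128129400-128129549, plus strand): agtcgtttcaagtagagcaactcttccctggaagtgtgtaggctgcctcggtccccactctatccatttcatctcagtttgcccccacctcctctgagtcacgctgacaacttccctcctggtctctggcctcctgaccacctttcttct
*Itgav* (chr2:83724247-83724396, plus strand): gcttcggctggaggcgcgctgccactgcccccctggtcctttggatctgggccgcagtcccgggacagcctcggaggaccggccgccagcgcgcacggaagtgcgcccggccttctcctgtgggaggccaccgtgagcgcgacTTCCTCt
*Itga4* (chr2:79255276-79255425, plus strand): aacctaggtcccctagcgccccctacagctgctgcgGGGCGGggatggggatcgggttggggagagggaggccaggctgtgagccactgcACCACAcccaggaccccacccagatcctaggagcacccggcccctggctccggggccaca
The motifs were GAGGAA (the core bound by PU.1, the main myeloid ETS factor), GGGCGG (the box bound by Sp factors) and TGTGGT (bound by RUNX factors), and no matches overlapped each other.

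In the entries of 250 bases before and 50 after the start, GAGGAA was found in 5 of the 7 (*Itgam*, *Itgav*, *Itga5*, *Itgb1*, *Itgb7*), beside 28.28% of all 32851 mouse promoter entries of that length. GGGCGG was in 5 (*Itgam*, *Itgav*, *Itga4*, *Itga5*, *Itgb1*), beside 35.66%, and TGTGGT in 2 (*Itga4*, *Itgax*), beside 16.76%. *Itgam* held GAGGAA 3 times, at −84, −15 and 33 from the start. Each motif was found in the entries of genes that were higher and of genes that were lower, though the GAGGAA of *Itgb7* (at 3) and the TGTGGT of *Itgax* (at 14) lay after the start. A match is a run of letters and not a bound site.

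The gene neighbours of *Itgal* were read from the same fit. Of 26 protein-coding genes within 250 kb of it, 23 were tested, 2 were higher and 2 were lower, with a median log2 fold change of −0.09. The 4 calls among 23 stand beside 18.6% called over all genes tested. *Spn* (CD43, a leukocyte sialoglycoprotein), 158 kb away, had a log2 fold change of 2.10 (377 ± 8.94 to 1613 ± 42.5 normalized counts, SD, n = 3 each, adjusted p = 4.54e-08). *Sephs2*, a selenophosphate synthetase gene, had 0.53, *Tbc1d10b* −0.41 and *9130019O22Rik* −1.19. The genes between *Spn* and *Itgal* included *Sephs2*, *Tbc1d10b* and others that were not called. Around the *Itgam*, *Itgax* and *Itgad* cluster, 18 of 23 neighbours were tested and 1 was called, *Rgs10* (0.63, adjusted p = 0.00314).

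**Figure D5:**
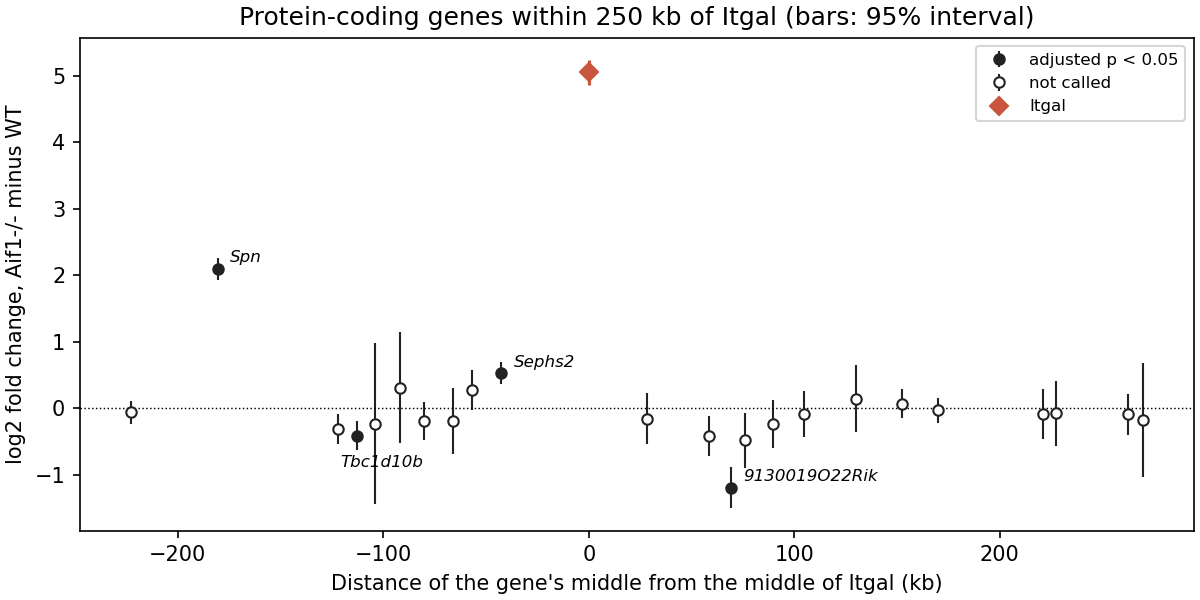
log2 fold change (*Aif1*-/- minus WT) with 95% interval of *Itgal* (diamond) and the 23 tested protein-coding genes within 250 kb, against the distance (kb) between the middle of each gene and the middle of *Itgal*. *Itgal* stood at 5.05, *Spn* at 2.10 and the other 22 between −1.19 and 0.53.

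Across all tested genes, those most like *Itgal* by the root mean square difference of centred log2 CPM over the 6 libraries were *Cx3cr1*, *Xlr3b* and *Stxbp6*. *Cx3cr1*, the fractalkine receptor gene, differed from it by 0.091 on the log2 CPM scale and went from 117 ± 9.12 to 3570 ± 204 normalized counts (SD, n = 3 each). *Xlr3b* (0.176) and *Stxbp6* (0.273) had 0 counts in WT and 75.2 ± 11.6 and 45.6 ± 6.45 normalized counts in *Aif1*-/- BMMs. Their fitted log2 fold changes were 9.24 and 8.52, beside 5.05 for *Itgal*. With 0 counts in WT, their log2 CPM there was set by the prior count of 2, so their likeness to *Itgal* depends on it. The genes most like *Itgb3* were *Amz1* (0.117), *Hykk* (0.130) and *Gbp7* (0.134). *Gbp7*, an interferon-induced GTPase gene, went from 2342 ± 207 to 311 ± 29.1 normalized counts (SD, n = 3 each).

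Of the 17 other integrin chains of the mouse, 11 were tested. Of these 4 were higher (beside 8.04% of all genes tested) and 0 were lower (beside 10.5%). The 4 were *Itga6*, *Itga9*, *Itgb5* and *Itga3*. *Itga6*, whose product binds laminin with β1 or β4, rose 1.89-fold (6190 ± 154 to 11689 ± 234 normalized counts), *Itga9*, the tenascin-binding partner of β1, 2.48-fold (1156 ± 118 to 2865 ± 62.5) and *Itgb5*, another αv partner, 2.08-fold (3070 ± 468 to 6396 ± 226). *Itga3* rose 8.89-fold from a low level (14.9 ± 0.48 to 133 ± 12.7, SD, n = 3 each). *Itga8* (log2 fold change 0.27, adjusted p = 0.0839), *Itgae*, *Itgad*, *Itgb4*, *Itga2b*, *Itga10* and *Itga11* were not called. *Itga7* and *Itgb8* had at most 20 and 17 counts in a library and were not tested, nor was *Itga2*, and *Itga1*, *Itgb2l* and *Itgb6* had no counts. With edgeR at an unadjusted p under 0.05 the number lower was also 0, and DESeq2 called 0 lower.

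Cytoplasmic partners link the β tail to actin and to kinases. Of 34 adaptor and kinase genes listed, 30 were tested, 8 were higher (16 without WT replicate 3) and 4 were lower. The 12 calls among 30 stand beside 18.6% called over all genes tested. Without WT replicate 3, 2404 of 17730 genes tested were called higher, beside 1399 of 17406 in the main fit. The median log2 fold change of the list was 0.13. Listed genes with the smallest adjusted p were *Lims2*, *Ptk2*, *Cyth1*, *Parvg*, *Src* and *Apbb1ip*. *Lims2*, a PINCH adaptor of integrin-linked kinase, had raw counts of 968, 920 and 1177 in WT and 4, 1 and 1 in *Aif1*-/- BMMs. *Ptk2*, the focal adhesion kinase gene, went from 2133 ± 119 to 623 ± 25.1 normalized counts (log2 fold change −1.77), and *Src* from 157 ± 19.0 to 12.8 ± 5.90 (−3.60). *Cyth1*, which encodes a binder of the β2 tail, rose from 1670 ± 100 to 3459 ± 72.3 (1.05), *Parvg* from 464 ± 52.8 to 1170 ± 20.8 (1.34) and *Apbb1ip*, the RIAM gene, from 3491 ± 196 to 5245 ± 83.8 (0.59; SD, n = 3 each). Talin 1 and kindlin 3, the integrin activators of leukocytes, were looked at after the values were seen. *Tln1* had a log2 fold change of −0.04 and *Fermt3* of 0.04, and neither was called.

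Of 26 ligand genes listed, 16 were tested in the BMMs themselves, with a median log2 fold change of −0.23. Of these 2 were higher (4 without WT replicate 3) and 5 were lower (8 without WT replicate 2). The 7 calls among 16 stand beside 18.6% called over all genes tested. Over all genes, 2404 of 17730 were higher without WT replicate 3, and 2168 of 17578 were lower without WT replicate 2. The main fit called 1399 higher and 1832 lower of 17406. *Fn1* (fibronectin, bound by α5β1, α4β1 and αv integrins) went from 7026 ± 239 to 34238 ± 2992 normalized counts (2.28), and *Tnc* (tenascin C) from 276 ± 24.7 to 565 ± 13.7 (1.03). *Icam1*, the ligand of LFA-1 and Mac-1, fell from 1469 ± 188 to 402 ± 18.6 (−1.87), in the direction opposite to *Itgal*. *C3*, whose fragment iC3b is bound by Mac-1 and CR4, fell from 8629 ± 498 to 1279 ± 139 (−2.76). *Emilin1*, an α4β1 and α9β1 ligand, fell from 1068 ± 118 to 273.5 ± 31.7 (−1.96), and *Edil3*, bound by αv integrins, from 3060 ± 75.6 to 1459 ± 21.5 (−1.07; SD, n = 3 each). *Vcam1*, the cellular ligand of α4β1, had 0 counts in WT and 6, 0 and 5 in *Aif1*-/- BMMs and was not tested.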

How the data were processed

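RNA was measured in 6 BMM libraries, grouped as WT or *Aif1*-/- from their labels. The authors depleted ribosomal RNA, prepared libraries with a kit described as stranded, trimmed single-end reads (Trim Galore 0.5), placed each at no more than 1 location of GRCm38 with TopHat2 2.0.13 and counted them by Ensembl gene with HTSeq 0.6.1p1 at its default settings. The authors deposited unnormalized counts of 47729 genes. HTSeq's summary rows were left out of library sizes and tests. Because a read was kept only where it fell in a single gene, bases shared by genes lose reads, and it was not tested whether reads of opposite strands were separated.

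Genotypes were compared in R 4.3.3 with edgeR 4.0.16, using TMM scaling, its filter by expression (17406 genes kept) and the quasi-likelihood test on genotype, with Benjamini-Hochberg adjustment over all genes tested and a threshold of 0.05. The SE is that of the log2 fold change. Normalized counts refer to a library of mean size. A prior count of 2 was used for log2 CPM. Coordinates, symbols and exon lengths came from GENCODE M21 (GRCm38). Ratios and shares used counts per kb of the union of exons, with an exact two-sided permutation test over libraries. The script was tested on simulated data. Alternatives were DESeq2 1.42.0, other scalings and filters, a replicate block, leaving out each library, mean transcript length and, added after seeing the data, the percentage of reads in no gene as a covariate and the unshared exon length.

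The 10 integrins, the other lists (17 integrin chains, 34 adaptors, 26 ligands) and the tests were chosen with earlier results of these data known. Named were all 10 integrins, other chains with at least 10 counts in a library, the 6 adaptors and 6 ligands with the smallest adjusted p, called neighbours within 250 kb of *Itgal* or the *Itgam* cluster, and the 3 genes most like *Itgal* and *Itgb3*. Any further gene was chosen after its values were seen.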

Additional observations from a re-analysis of the deposited data

How the results depend on the processing

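Over 13 alternatives the log2 fold changes of the 10 integrins gave 130 values, of which 113 kept direction and side of the threshold, 14 kept direction but lost the call and 3 changed sign. Those that changed sign were not called in any case: *Itga5* was 0.063 without WT replicate 3 (−0.080 to 0.063 over the libraries left out), and *Itgb1* was −0.0056 without WT replicate 2 and −0.0038 without *Aif1*-/- replicate 1 (−0.0056 to 0.041). The lost calls were those of *Itgax*, *Itga4* and *Itgb7*. With a library left out, the integrins called lower numbered 1 to 3, genes called higher 874 (without *Aif1*-/- replicate 1) to 2404 (without WT replicate 3) and lower 1166 to 2485 (the same libraries), adaptors higher 7 to 16, ligands higher 2 to 4 and ligands lower 5 to 8. The upper end for adaptors and for ligands higher was without WT replicate 3, and for ligands lower without WT replicate 2. With the percentage of reads in no gene as a covariate, the fit called 2678 genes higher and 2839 lower, beside 1399 and 1832, and 13 adaptors higher in place of 8. The cause of these shifts was not tested.

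The labels do not say whether same-numbered libraries were paired. Deviations of same-numbered libraries correlated by 0.060, −0.075 and −0.086 over 17406 genes, each under the 0.1 set beforehand for treating them as paired. WT replicate 2 and *Aif1*-/- replicate 3 correlated by 0.13. Deviations from a mean over 3 libraries are not independent, so these values cannot exclude a pairing. With the replicate number as a block, 1267 genes were higher and 1605 lower, and *Itgax* (adjusted p = 0.0502) and *Itgb7* (0.0561) lost their calls, which leaves 4 integrins higher and 2 lower.

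Gene length sets the shares. With the unshared exon length the differences were 17.5 percentage points for *Itgal*, −16.8 for *Itgam* and −0.65 for *Itgax*, and the rise of the summed β2 partners over *Itgb2* was 0.33. With mean transcript length they were 35.3 for *Itgal*, −29.2 for *Itgam*, −6.01 for *Itgax*, −12.7 for *Itga4*, 18.0 for *Itgav*, −1.42 for *Itgb3* and −0.48 for *Itgb7*, and in the sum of *Itgb3* and *Itgb5* −12.5 for *Itgb3* and 12.5 for *Itgb5*. Counts per library were 319 to 489 for *Itgax* and 113 to 332 for *Itgb7*, whose log2 fold changes had SEs of 0.097 and 0.157.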

Other observations

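*Itgav* has further β partners. Per kb and chosen after the values were seen, *Itgb5* and *Itgb3* were set side by side. *Itgb3* made up 25.5%, 26.7% and 22.7% of their sum in the WT libraries and 2.24%, 2.31% and 1.80% in the *Aif1*-/- libraries. The remainder was *Itgb5*, which went from 75.0% ± 2.05 to 97.9% ± 0.28 (SD, n = 3 each). *Itgb6* had no counts and *Itgb8* had 7, 3 and 17 counts in WT and 0, 3 and 0 in *Aif1*-/- BMMs, so that neither was tested.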
